A study of Mus musculus with 4 samples.

Results

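The secretoglobins are a family of small secreted proteins, and 10 of their genes were followed here from young adult to aged nasal mucosa: Scgb1b2, Scgb1b20, Scgb1b27, Scgb2b2, Scgb2b15, Scgb2b27, Scgb3a1, Scgb3a2, Scgb1a1 and Scgb1c1. They were found through the accession that the array gives each probe, which matched 12 of the 56605 non-control probes to the 10 symbols, with 2 probes each for Scgb2b15 and Scgb2b27. The 10 symbols were picked with the age differences of these same arrays known. Their age differences are therefore given as a description. Where a limma call is given for them, it is not read as a test.

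The study compared RNA of nasal mucosa between young adult (8 weeks) and aged (16 months) C57BL/6J mice, to learn how the surroundings of olfactory neurons change with age. Each age had 2 one-color arrays, and each array measured the pooled RNA of 5 mice. The published methods count 6 mice of each age for gene analyses. If both pools of an age were drawn from these 6, they share mice, which the methods do not state, so limma's P values measure only the spread between these pools. Sample descriptions that mention silica and lung did not match the titles or the tissue and were not used. The tissue label was checked against markers: Omp, which marks mature olfactory neurons, gave intensities of 300826 and 286061 in the young adult pools and 317836 and 332591 in the aged pools, and the supporting cell gene Cyp2g1 gave 229701, 221117, 251222 and 252656.

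The methods describe the mice as male, and the data of both ages went against this. Xist, the RNA of the inactive X chromosome, was well above background on all 4 arrays, at 645 and 612 in the young adult pools and 644 and 637 in the aged pools. The 7 probes for 4 Y-linked genes (Ddx3y, Eif2s3y, Kdm5d and Uty) ranged from 7.48 to 52.2, and 0 of them were well above background on an array. These 5 genes were chosen after their values were seen, and the mice are referred to below by age alone.

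Every intensity below is the background-corrected, quantile-normalized brightness of a probe, and every log2 difference is aged minus young adult. The scanner software marked 68.1 and 76.8% of the non-control spots as well above background on young adult arrays 1 and 2, and 63.1 and 72.7% on aged arrays 1 and 2. Young adult pool 1 and aged pool 1 lay on the same slide, and the other arrays had a slide each. A difference within the shared slide therefore compares pools numbered 1, and a difference outside it compares pools numbered 2. A probe was called when limma gave P below 0.05 and a false discovery rate (FDR) below 0.25, the significance thresholds of the published methods. Their further limits, a mean expression of at least 100 and a fold of at least 1.5, were applied only as an alternative. The number of arrays limits the precision.

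Secretoglobins fold into bundles of helices that pair into dimers around a pocket that can hold small hydrophobic molecules such as steroids. In mice, Scgb1b genes encode the alpha subunit and Scgb2b genes the beta or gamma subunit of androgen-binding protein, a disulfide-linked dimer secreted by facial and nasal glands into saliva, tears and nasal fluid, where it has been studied as a signal in mate choice. Scgb1a1 is the classic product of club cells in the lung airways, and Scgb3a1 and Scgb3a2 are secreted by airway epithelium and its glands.

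The Scgb1b and Scgb2b genes share one cluster on chromosome 7, and several of them were lower together in the aged pools, so the promoters of 5 of them are shown first. RefSeq promoter windows on GRCm38.p6 were found for 7 of the 10 genes; Scgb1a1, Scgb1b20 and Scgb3a2 are named only. The sequences are the 250 bases before the annotated start, 5′ to 3′ along the gene's strand, at chr7:34021231-34021480 (plus strand) for Scgb1b27, chr7:31291817-31292066 (minus) for Scgb1b2, chr7:34013943-34014192 (minus) for Scgb2b27, chr7:32829654-32829903 (minus) for Scgb2b15 and chr7:31302519-31302768 (plus) for Scgb2b2. Capitals mark every match, on either strand, to TATAAA (the TATA box), AGAACA (part of a steroid receptor element) or TTGCNNAA (letters like those bound by C/EBP factors).
Scgb1b27: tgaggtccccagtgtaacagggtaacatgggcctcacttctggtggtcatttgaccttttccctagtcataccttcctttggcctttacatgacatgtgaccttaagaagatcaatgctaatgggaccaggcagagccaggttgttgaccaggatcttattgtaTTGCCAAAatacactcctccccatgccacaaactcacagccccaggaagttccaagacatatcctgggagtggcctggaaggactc
Scgb1b2: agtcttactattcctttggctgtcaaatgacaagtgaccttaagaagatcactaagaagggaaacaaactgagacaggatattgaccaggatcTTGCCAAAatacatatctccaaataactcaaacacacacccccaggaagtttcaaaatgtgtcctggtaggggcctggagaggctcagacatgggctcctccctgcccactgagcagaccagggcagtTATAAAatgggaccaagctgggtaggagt
Scgb2b27: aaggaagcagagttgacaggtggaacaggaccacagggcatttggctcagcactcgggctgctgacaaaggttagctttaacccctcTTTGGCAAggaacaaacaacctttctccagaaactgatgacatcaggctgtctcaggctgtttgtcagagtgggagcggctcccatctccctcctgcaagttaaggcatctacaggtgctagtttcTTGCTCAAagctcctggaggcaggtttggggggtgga
Scgb2b15: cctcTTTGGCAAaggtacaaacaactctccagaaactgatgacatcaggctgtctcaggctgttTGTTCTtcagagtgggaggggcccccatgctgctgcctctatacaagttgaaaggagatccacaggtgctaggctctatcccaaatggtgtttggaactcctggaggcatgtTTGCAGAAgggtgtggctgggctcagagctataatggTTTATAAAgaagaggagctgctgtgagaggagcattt
Scgb2b2: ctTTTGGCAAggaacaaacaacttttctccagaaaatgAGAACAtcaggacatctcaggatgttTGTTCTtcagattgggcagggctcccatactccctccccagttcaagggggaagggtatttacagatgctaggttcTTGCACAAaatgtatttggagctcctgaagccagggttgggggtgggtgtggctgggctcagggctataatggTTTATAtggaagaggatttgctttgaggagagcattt

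The 2 alpha subunit windows, Scgb1b27 and Scgb1b2, were alike at 181 of 228 paired bases (79.4%) when their 300-base windows, which run on to 50 bases after the start, were aligned. Among the beta and gamma subunit genes, Scgb2b15 was 85.4% identical to Scgb2b27 over 213 paired bases and 80.3% to Scgb2b2 over 294. Scgb2b2 was 84.1% identical to Scgb2b27 over 214 paired bases, so these shares cover unlike lengths. Likeness went further among genes of the cluster outside the 10. The windows of Scgb2b10, Scgb2b15 and Scgb2b17 were the same at all 300 bases, those of Scgb1b15 and Scgb1b17 were also the same, and Scgb1b27 was 94.3% identical to Scgb1b30. Probe sequences were not used here, so a probe for one copy may also detect RNA of near-identical copies, and values of single genes in the cluster are uncertain to that extent.

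TATAAA lay 29 to 24 bases before the start of Scgb1b2. Scgb2b2 had it on the opposite strand 37 to 32 bases before the start, and Scgb2b15 had it on both strands at 37 to 32 and 35 to 30 bases, overlapping in one run. The windows of Scgb1b27 and Scgb2b27 did not hold these letters, but their annotated starts lie further upstream. The TTGCNNAA match 86 to 79 bases before the start of Scgb1b27 lay at 157 to 150 bases in Scgb1b2. Likewise, one at 163 to 156 bases in Scgb2b27 lay at 248 to 241 bases in Scgb2b2. These 2 windows thus end before the place where Scgb1b2 and Scgb2b2 have TATAAA, and later bases were not searched. Over all 32851 promoter windows of the same length, 12.4% held TATAAA on either strand, against 3 of 9 Scgb1b and 16 of 20 Scgb2b windows in the cluster. AGAACA was in 2 of the 7 windows found, those of Scgb2b2 and Scgb2b15, in 19 of 29 windows of the cluster and in 16.1% of all windows. TTGCNNAA was in 5 of the 7 windows, in 9 of 9 Scgb1b and 16 of 20 Scgb2b windows, and in 9.56% of all. The forkhead letters TGTTTAC were in 0 of the 7 and 0 of the 29 windows, and in 3.17% of all. These windows share ancestry and are not separate cases, and a match describes letters, not a bound site. Scgb1b2, whose aged pools were higher, and Scgb1b27, whose aged pools were lower, both carried TTGCNNAA.

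Scgb1b27 encodes the main salivary alpha subunit. Its intensity was 51253 and 51513 in the young adult pools and 10955 and 11479 in the aged pools. Both aged pools lay far below both young adult pools, and pools of one age differed little. The means were 51383 ± 183 (SD, n = 2 pools) and 11217 ± 370.5, a log2 difference of -2.20, or 4.58-fold lower in aged mice. It was -2.23 within the shared slide and -2.17 outside it. As these are bulk samples, fewer cells that express a gene and less RNA per cell cannot be told apart, here or for any gene below.

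Scgb1b20, another alpha subunit gene, had intensities of 17961 and 18453 in the young adult pools and 3409 and 3911 in the aged pools. The aged pools were again the low ones, without overlap. From means of 18207 ± 348 and 3660.3 ± 355, the log2 difference was -2.32, or 4.99-fold lower, with -2.40 within the slide and -2.24 outside it. No other probe among the 25 of secretoglobin genes had a larger difference in size.

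Scgb1b2 went the other way. This alpha subunit gene had intensities of 54.9 and 41.1 in the young adult pools and 134 and 163 in the aged pools. Both aged pools were above both young adult pools, and the probe was well above background on both aged arrays but on only 1 of the 2 young adult arrays. The means of 48.0 ± 9.73 and 149 ± 21.0 gave a log2 difference of 1.64, or 3.11-fold higher in aged mice, with 1.29 within the slide and 1.99 outside it. Near background the size depended on the processing, from 1.02 to 2.33 over 17 settings, all of them higher in aged.

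Scgb2b27 encodes a subunit that pairs with an alpha subunit, and its gene lies next to Scgb1b27. Its brighter probe read 48158 and 49887 in the young adult pools and 17309 and 15701 in the aged pools. The dimmer probe read 1685, 1839.8, 738 and 759.8 in the same order. On both probes the aged pools were below the young adult pools without overlap. The brighter probe had means of 49022 ± 1222 and 16505 ± 1138, a log2 difference of -1.57 (2.97-fold lower), with -1.48 within the slide and -1.67 outside it. The dimmer probe had means of 1763 ± 109 and 749 ± 15.3 and a log2 difference of -1.23 (2.35-fold lower), with -1.19 and -1.28.

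Scgb2b2 lies next to Scgb1b2 in the cluster, yet its age difference had the opposite sign. Its intensities were 86289 and 93786 in the young adult pools and 30246 and 31879 in the aged pools, and the aged pools were again the low ones. Means of 90037 ± 5301 and 31062 ± 1155 gave a log2 difference of -1.53 (2.90-fold lower), with -1.51 within the slide and -1.56 outside it. The 2 neighbouring genes thus differed in sign on the same 4 arrays.

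For Scgb2b15, the brighter probe read 4635 and 5087 in the young adult pools and 1824 and 1619 in the aged pools, again without overlap. Its means were 4861 ± 319.7 and 1722 ± 145, a log2 difference of -1.50 (2.83-fold lower), with -1.35 within the slide and -1.65 outside it. The other probe of this gene was not well above background on any array, at 16.5, 23.6, 19.7 and 20.4, and gives no fold. For Scgb2b15 the age difference was thus measured with the brighter probe alone.

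The 4 genes outside the cluster showed no shared direction. Scgb3a1, on chromosome 11, encodes a secretoglobin of the upper airway. It had intensities of 658 and 601 in the young adult pools and 1411 and 1161 in the aged pools, with both aged pools above. Means of 629.7 ± 40.3 and 1286 ± 177 gave a log2 difference of 1.02, or 2.03-fold higher in aged mice, with 1.10 within the slide and 0.95 outside it.

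Scgb3a2, on chromosome 18, encodes a secretoglobin of the lung airways and read 110.2, 169, 188 and 139 in young adult pools 1 and 2 and aged pools 1 and 2. The ages overlapped, with means of 139 ± 41.5 and 164 ± 35.1, and the log2 difference of 0.25 was 0.77 within the slide and -0.28 outside it. Scgb1a1, on chromosome 19, the club cell protein itself, read 37.3, 73.0, 52.2 and 48.4 in that order. It was well above background on 1 of 2 arrays of each age, and the ages overlapped at means of 55.2 ± 25.2 and 50.3 ± 2.65. Its log2 difference of -0.06 was 0.48 within the slide and -0.59 outside it, so neither Scgb3a2 nor Scgb1a1 had a settled direction.

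Scgb1c1 lies on chromosome 7 but outside the cluster and is known as a gene of the olfactory mucosa. Its intensities were 388889 and 377557 in the young adult pools and 438724 and 413623 in the aged pools. The aged pools were slightly higher, at means of 426174 ± 17749 against 383223 ± 8013, a log2 difference of 0.15 that was not called, but was called higher with an intensity trend in eBayes. It was 0.17 within the slide and 0.13 outside it, and 0.11 to 0.22 over 17 settings. Quantile normalization gives the brightest probes their levels by rank, so the size and spread here partly reflect rank. Mup4 held nearly the same 2 levels in the aged pools, 413622 and 438726. With 75th percentile scaling the log2 difference of Scgb1c1 was 0.20.

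**Figure D1:**
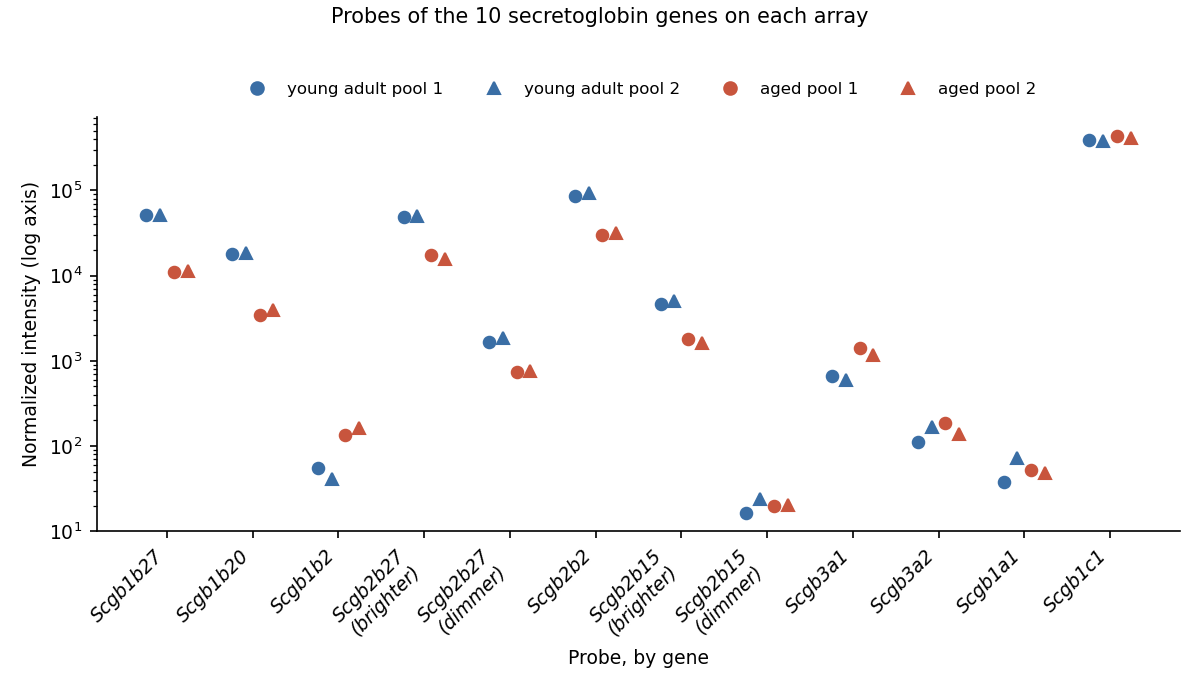
Normalized intensity (log axis) of the 12 probes of the 10 secretoglobin genes on each of the 4 arrays, with circles for pools numbered 1 and triangles for pools numbered 2, young adult in blue and aged in red. The aged points lie below the young adult points for 6 probes, all of Scgb1b and Scgb2b genes, and above them for Scgb1b2, Scgb3a1 and Scgb1c1. This is a description, as the genes were picked on this contrast and the share of all probes without overlap was not counted.

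Of the 12 probes, 9 were well above background on all 4 arrays, 2 on 2 or 3 of them and 1 on none. Called lower in aged mice were 6, beside 2.65% of all 56605 probes, and called higher were 2 (Scgb1b2 and Scgb3a1), beside 1.84% of all probes. Since the genes were picked on this contrast, nothing is read from these counts. The median log2 difference of the 12 probes was -0.64, beside 0.009 for all probes; it was -1.37 with dim probes left out and -0.40 with the probes of a gene averaged. As the plot of the 12 probes by array shows, the lower values were all in the chromosome 7 cluster.

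A further 13 secretoglobin genes had 1 probe each, all in the cluster, and are likewise described, with no call read as a test. Scgb1b3 read 63041 and 60589 in the young adult pools and 16704 and 15952 in the aged pools, a log2 difference of -1.92 (3.79-fold lower). Scgb1b30 read 1001, 633, 194 and 245, a log2 difference of -1.87 that was -2.37 within the slide and -1.37 outside it. Scgb2b20, which lies next to Scgb1b20, read 118717, 108824, 44558 and 41584, a log2 difference of -1.40 (2.64-fold lower). In these 3 genes the aged pools were the low ones. The same held for Scgb1b10, at 3508, 4365, 1902 and 2088 (-0.97, 1.96-fold lower), and for Scgb2b24, at 312, 299, 154 and 108 (-1.24, 2.36-fold lower).

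Scgb1b7 shared the direction of Scgb1b2. It read 46.8 and 47.4 in the young adult pools and 78.7 and 89.5 in the aged pools, a log2 difference of 0.83 and, with the processing used here, at least 1.78-fold higher in aged mice. The log2 difference was 0.46 to 1.65 over 16 settings, all of them higher in aged, so the bound holds for this processing only. Such a bound sets the brighter age against the higher of the dim probe's own signal and the lowest signal among probes well above background, because no young adult array, and only 1 of 2 aged arrays, had this probe well above background. The probe's own signal was the higher here, so the bound equals its measured fold. The other 7 genes (Scgb1b19, Scgb1b24, Scgb2b3, Scgb2b7, Scgb2b12, Scgb2b23-ps and Scgb2b26) did not reach well above background on an array. With the dimmer Scgb2b15 probe, these 8 probes ranged from 10.4 to 39.4 in intensity.

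Taking the cluster as a whole, 19 genes had 21 probes. The 11 probes well above background on all 4 arrays were each called lower in aged mice, from 1.96-fold for Scgb1b10 to 4.99-fold for Scgb1b20, with a median log2 difference of -1.53, while the dimmer Scgb1b2 and Scgb1b7 were called higher; this too is a description. Of all 34134 probes well above background on the 4 arrays, 3.29% were called lower and 2.31% higher, with a median of 0.019. The 5 alpha subunit probes among the 11 had a median of -1.92 and ranged from -0.97 to -2.32, and the 6 probes of beta and gamma subunit genes had a median of -1.45 and ranged from -1.23 to -1.57. Whether the subunit classes differ was not tested. In the gene table the cluster holds 48 secretoglobin entries among 88, of which 35 are protein coding and 19 have a probe here.

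The genes on either side of the cluster were read on the same arrays. Of the 5 genes on each side, 8 had a probe, 17 probes in all, with log2 differences from -0.25 to 0.54 and a median of 0.03. The nearest genes with a probe were Gm10640 (0.15, near background) and Gramd1a (-0.20 and -0.25) on the Scgb1b2 side, and Wtip (-0.14 and -0.04) and Uba2 (0.08 and 0.03) on the Scgb1b30 side. Of the 17 neighbouring probes 1 was called higher and 0 lower, beside 1.84% and 2.65% of all probes. The called probe is one of Hpn, which encodes a membrane serine protease. It rose from 242 and 246 in the young adult pools to 343 and 368 in the aged pools, a log2 difference of 0.54 (limma FDR 0.207), while the other Hpn probe was at 0.31.

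**Figure D2:**
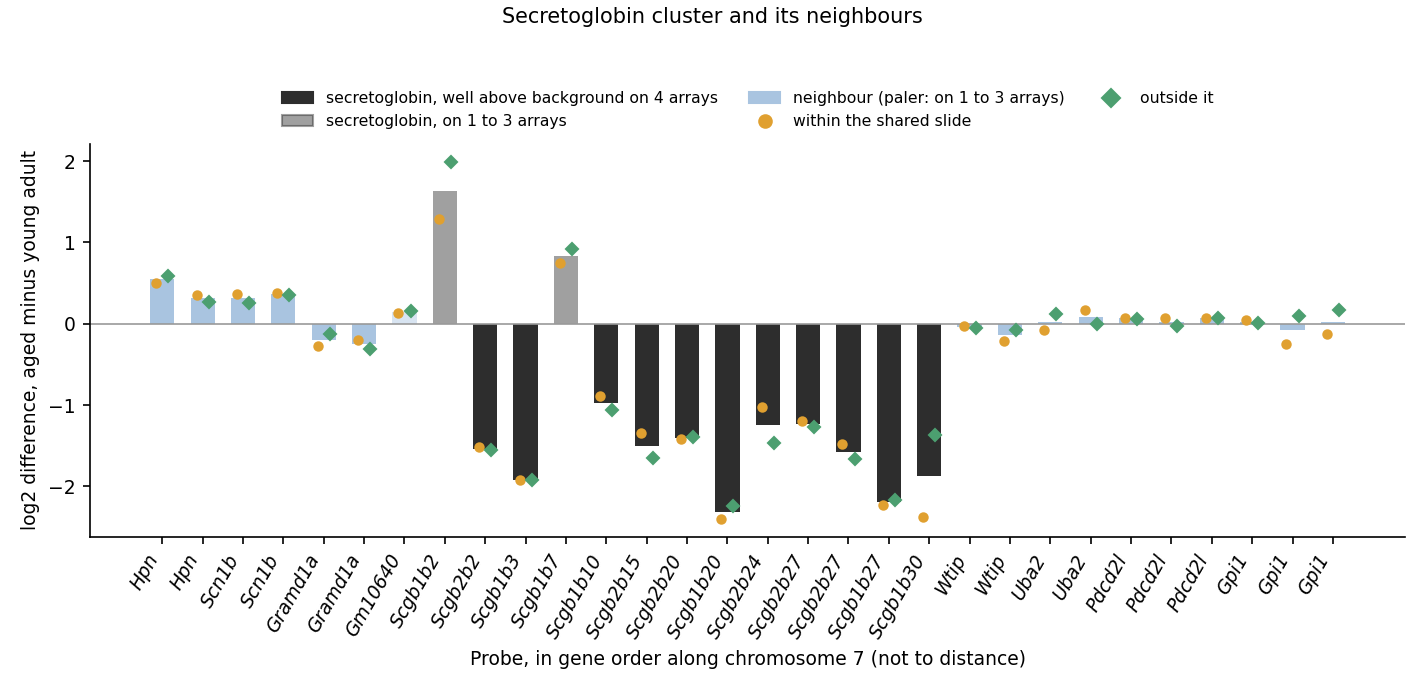
Log2 difference (aged minus young adult, bars) of each secretoglobin and neighbouring probe well above background on at least 1 array, in gene order along chromosome 7 and not to distance, with the values within (circles) and outside (diamonds) the shared slide. The dark bars of the cluster lie between -0.97 and -2.32, the paler bars of Scgb1b2 and Scgb1b7 point up, and the neighbours lie between -0.25 and 0.54.

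Likeness of pattern was measured from Scgb1b27 as the root mean square distance between log2 profiles over the 4 arrays, each centred on its own mean, for the brightest probe of 16107 genes well above background on all 4 arrays. The nearest of all was Scgb1b20, at 0.077. The 5 nearest genes outside the family were A630073D07Rik (0.080), Muc5ac (0.105), Pip (0.120), Col3a1 (0.127) and Col1a1 (0.128). Their nearness was set by the same age difference, so their values are a description too. A630073D07Rik read 2444, 2173, 458 and 481, and Muc5ac, which encodes a secreted mucin of goblet cells, read 2245, 2704, 553 and 597. Pip encodes prolactin-inducible protein, a secretion of salivary, tear and nasal glands, and read 20409, 18179, 3525 and 3774. The fibrillar collagen genes read 14036, 13472, 3618 and 3394 for Col3a1 and 38695, 37728, 9583 and 10298 for Col1a1. Every one of the 5 was high in both young adult pools and low in both aged pools, with log2 differences from -1.94 for Col1a1 to -2.40 for Pip. Within the family, Scgb1b3 had rank 7 in nearness, the brighter Scgb2b27 probe rank 15, Scgb2b2 rank 16, Scgb2b15 rank 23 and Scgb1b10 rank 123, while Scgb1c1 had rank 12859 and Scgb3a1 rank 16014.

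**Figure D3:**
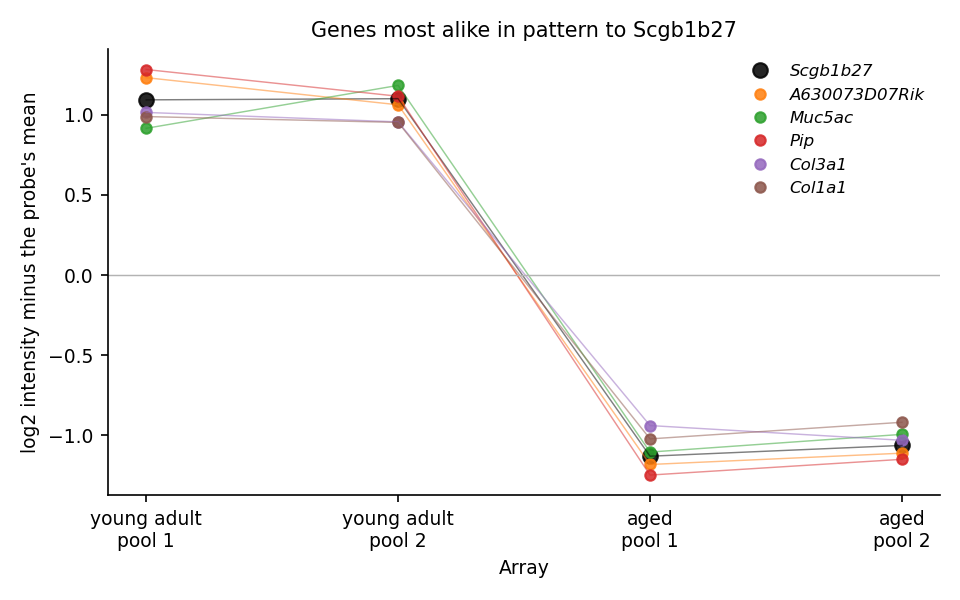
Log2 intensity of Scgb1b27 and of the 5 genes outside the family most alike to it, each minus the probe's own mean over the 4 arrays; lines only join the points of a gene. All 6 profiles are above 0 in both young adult pools and below 0 in both aged pools.

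To place the family among other secretions and cell types, 9 lists of genes (87 genes, 80 with a probe, 103 probes) were counted in the same fit. In it 5 probes were called higher and 16 lower in aged mice, beside 1.84% and 2.65% of all probes, whose median log2 difference was 0.009. The lists too were chosen with earlier results of these data known, and called genes were named by the size of their difference. Their counts and FDRs are therefore a description and not a separate test. Of 11 regulators known to act at secretoglobin genes, with 19 probes and a median log2 difference of -0.14, only Cebpd was called. Limma gave 2 of the 19 probes an unadjusted P below 0.05, that of Cebpd, higher in aged mice, and another that was lower. Cebpd encodes a C/EBP transcription factor and rose from 7868 and 8879 in the young adult pools to 12848 and 13819 in the aged pools, without overlap, a log2 difference of 0.67 ± 0.11 (SE, limma FDR 0.211). Nkx2-1, a lung regulator of Scgb1a1 and Scgb3a2, was not well above background on any array.

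Among 7 genes for proteins that bind or take up secretoglobins, with 10 probes and a median of 0.19, only Tgm2 was called. It encodes a transglutaminase that crosslinks proteins, and it fell from 10948 and 10647 to 6891 and 7311, a log2 difference of -0.61 (limma FDR 0.195). Pla2g1b was not well above background on any array.

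Club cell markers had a median of -0.03, and limma called 0 of 10 probes for 8 genes in the reported fit, with 2 probes at an unadjusted P below 0.05. The carbonyl reductase gene Cbr2 read 368580.3, 341670.3, 353790.5 and 353804 on its brighter probe, and the cytochrome gene Cyp2f2 read 252657, 249555, 262161 and 264107. Cbr2 overlapped between ages on this probe and Cyp2f2 was at a log2 difference of 0.07. Chosen after their values were seen, Hp (0.34) and Upk3a (-0.54) were the 2 probes at an unadjusted P below 0.05. Upk3a was well above background on only 1 of 2 aged arrays. Without overlap, aged pools were lower for Upk3a, Reg3g (-0.14), Lypd2 (-0.13) and the dimmer Cbr2 probe (-0.13). They were higher for Hp, Cyp2f2 and Gabrp (0.05). Summed over the list, the intensity was 1026094 and 988962 in the young adult pools and 997735 and 1009585 in the aged pools. Cbr2 was the brightest gene of the list, and every gene of it was well above background on at least 1 array.

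Of 18 genes listed for gland acinar secretions, 17 had a probe (23 probes), and 10 probes of 9 genes were called lower (beside 2.65% of all probes), 1 probe (Muc5b) higher, with a median of -0.19. Pip fell by 2.40 on the log2 scale (limma FDR 0.155), from the values above. Dcpp2 and Dcpp3 encode demilune cell and parotid proteins: Dcpp2 fell from 2640.4 and 2796 to 1018 and 952, a log2 difference of -1.47 (limma FDR 0.16), and Dcpp3 fell from 1272 and 1385 to 493 and 471, one of -1.46 (limma FDR 0.165). The aged pools of all 3 genes were below the young adult pools without overlap. Smr3a, a submaxillary gland androgen-regulated gene, fell on 1 probe from 109 and 98.0 to 33.7 and 42.7, where no aged array was well above background, so it was at least 2.72-fold lower with this processing, a bound again equal to the measured fold (limma FDR 0.178). The log2 difference of this probe, -1.45, was -2.97 to -0.80 over 17 settings. Its other probe had a log2 difference of -1.12, from -1.80 to -0.68 over the settings, and was not called (limma FDR 0.254). Outside the naming rule, and chosen after their values were seen, Car6, Dcpp1, Dnase1, Ltf and Bhlha15 were the other genes called lower. Bhlha15, a transcription factor gene of secretory cells, read 9565, 9115, 4461 and 4357. The list did not move as one, since 9 of its 23 probes had a log2 difference above 0. Muc5b, a mucin gene, was at 0.54 on its called probe (limma FDR 0.205) and at 0.33 on the other. Likewise chosen after their values were seen, Bpifa2 (0.32 and 0.39), Amy1 (0.07 and 0.27) and Aqp5 (0.12 and 0.23) were not called, and their aged pools lay above the young adult pools without overlap. The summed intensity of the list was 638096 and 615988 in the young adult pools and 493827 and 492158 in the aged pools, with Ltf the brightest gene and Prol1 not well above background anywhere. What the gland genes called lower have to do with the lower secretoglobin values was not tested.

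Of 9 goblet cell markers with 9 probes and a median of -0.04, 2 were called lower and 1 higher. Muc5ac fell by 2.10 on the log2 scale (limma FDR 0.165). Tff2, a trefoil peptide gene, fell from 6188 and 5970.1 to 4573 and 4494, a log2 difference of -0.42 (limma FDR 0.231). Fcgbp, which encodes a mucus protein, rose from 2212 and 2245 to 4216 and 4284, a log2 difference of 0.93 (limma FDR 0.166). Pools of the ages did not overlap for these 3 genes, while no array had Clca1 or Tff3 well above background. The summed intensity, led by Agr2, was 46916 and 47900.2 in young adult pools and 51565 and 50814 in aged pools.

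Nasal gland lipocalins and BPI-fold proteins, which like secretoglobins are secreted carriers or surface proteins of nasal fluid, had 10 of 15 listed genes with a probe and a median of -0.18. Bpifb9b had the largest rise of the lists, from 7791 and 8564 to 35135 and 38523, a log2 difference of 2.17 (limma FDR 0.16). Mup5 fell from 39134 and 40799 to 21418 and 22296, a log2 difference of -0.87 (limma FDR 0.17). Lcn4 fell from 248601 and 232011 to 153914 and 155863, a log2 difference of -0.63 (limma FDR 0.191), and Lcn11 from 394338 and 394336 to 270146 and 273379.8, one of -0.54 (limma FDR 0.196). In this list too the ages did not overlap for the called genes, and they went in both directions. The summed intensity was 2184518 and 2174463 in the young adult pools and 1901714 and 1958176 in the aged pools, with Mup4 the brightest gene.

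Markers of the epithelium itself gave few calls in the reported fit. Over all 9 lists, calls rose from 21 to 48 with dim probes left out and to 59 with an intensity trend. These added calls were not counted by list. Limma called 0 of 8 probes for ciliated cell markers (median -0.09), with 2 at an unadjusted P below 0.05. Tekt1 read 11931, 11459.8, 11331 and 11791, and Foxj1 read 7187, 6821, 7447 and 6276, both overlapping between ages. Chosen after their values were seen, Dnah5 (-0.37), Rsph1 (-0.18) and the brighter Dnah9 probe (-0.28) had aged pools below without overlap. Both Ccdc39 probes (0.13 and 0.27) had them above. Limma called 0 of 6 probes for sustentacular cell markers (median 0.06), with 1 at an unadjusted P below 0.05, and the brightest gene, Cyp2a5, read 317851, 332582, 341668 and 323665. Chosen after its values were seen, Ugt2a1 was that 1 probe. It fell from 174341 and 179646 to 142983 and 129767, a log2 difference of -0.38, while 5 of the 6 probes had a log2 difference above 0. Among 9 probes for mature olfactory neuron markers (median 0.15), Stoml3 rose from 30691 and 29551 to 41364 and 39866, a log2 difference of 0.43 (limma FDR 0.233). The other 8 neuron probes were not called. All 9 had both aged pools above both young adult pools, but the share of all probes that did so was not counted. Nothing is therefore read from this count. Summed intensities in young adult pools 1 and 2 and aged pools 1 and 2 were 36518, 35849, 33359 and 33083 for ciliated cells, 971121, 986629.7, 1002648 and 974261 for sustentacular cells, and 578886, 572854, 630089 and 641249 for neurons, where Omp was brightest.

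**Figure D4:**
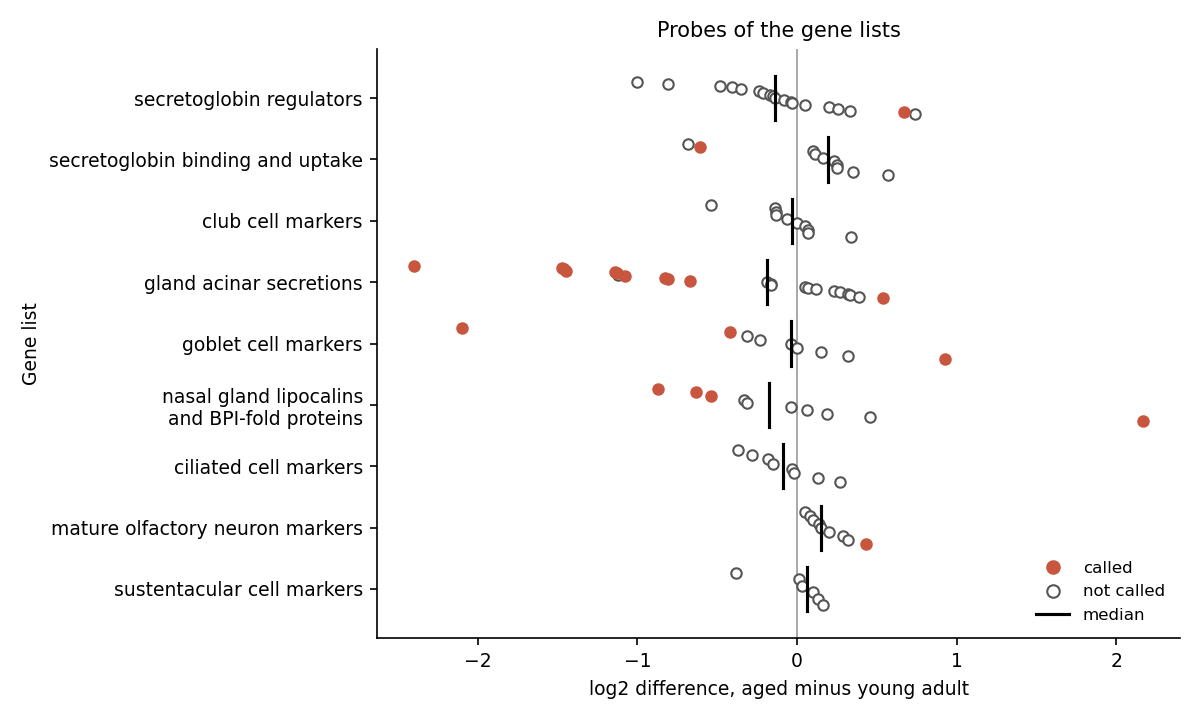
Log2 difference (aged minus young adult) of every probe of the 9 gene lists, filled where called and open where not, with a bar at the list's median. The gland acinar list has 10 filled points below 0 and 1 above, and the club, ciliated and sustentacular lists have none.

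All of these calls rest on 2 arrays per age. The smallest FDR among the 56605 probes was 0.101, and an exact two-sided permutation test of 2 arrays against 2 cannot give a P below 0.333. With any 1 array left out, limma called 0 probes, with 4223 to 6643 probes at an unadjusted P below 0.05. The calls of Tff2 and Lcn11 were also lost when arrays were scaled to their 75th percentile, as was that of Stoml3 with the scanner's processed signal scaled in this way.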

How the data were processed

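RNA from 4 pools of nasal mucosa, 2 per age, was measured on Agilent one-color arrays. The authors extracted the spots with Agilent Feature Extraction 11.0.1.1, and the deposited files give the median intensity of each spot and of its local background, not normalized between arrays. The series-wide value table repeats the scanner's processed intensity exactly (no tolerance) at all 62976 spots of an array and added nothing. Saturated spots numbered 0. Median local backgrounds were 67.0 and 32.0 (young adult) and 63.0 and 39.0 (aged).

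In R 4.3.3, limma 3.58.1 corrected the background (normexp, offset 0). Control spots were dropped, as were the 88 to 118 other spots of an array that carried outlier flags. Replicate spots were averaged per probe, and log2 values of 56605 probes were quantile normalized. Accessions named 32994 probes (58.3%) through a RefSeq gene table of GRCm38.p6, whose starts also gave the order of genes on chromosome 7. Ages were compared probe by probe with lmFit and eBayes over all 4 arrays, without covariates, with Benjamini-Hochberg adjustment over all probes. A probe was called at P below 0.05 and FDR below 0.25. The fit was tested on simulated data. Motifs were searched on both strands of RefSeq promoter sequences.

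The members and lists were chosen with earlier results of these data known. Named genes were every secretoglobin probe, up to 4 genes per list with the largest called difference (or the 2 brightest where none was called), the 5 genes most alike to Scgb1b27 and the 5 neighbours on either side of the cluster; the others named are said to be so where they appear. The 2 probes of a gene were kept apart. One gene counted in the list of regulators is not reported by itself here.

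Alternatives were normexp offsets of 16 and 50, no background correction, the scanner's processed signal (scaled or quantile normalized), 75th percentile scaling, cyclic loess, flagged outlier spots kept, dim probes left out, probes of one gene averaged, eBayes with an intensity trend, a block for the replicate number, slide as a random block, the arrays within and outside the shared slide, each array left out, an FDR below 0.05, and added limits on mean intensity and fold. Histology and quantitative PCR were not analysed here.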

Additional observations from a re-analysis of the deposited data

How the results depend on the processing

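All secretoglobin probes called in either direction kept their sign in each setting that gave them a value. The counts of calls moved, and the cause was not tested. As reported, 1044 probes were called higher and 1501 lower, 2 and 6 of them among the 12 probes of the 10 genes, and 21 on the lists. A normexp offset of 16 gave 1628 higher and 33 on the lists. An offset of 50 gave 2629 higher, 3139 lower and 39 on the lists, no background correction 2238, 2832 and 37, and the scanner's processed signal with quantile normalization 2838, 3267 and 41. With dim probes left out the counts were 4222, 4537 and 48, and with an intensity trend 4718, 4617 and 59, with 3 of the 12 higher (Scgb1c1 added). Limits on mean intensity (at least 100) and fold (at least 1.5) left 464 higher, 699 lower and 16 on the lists. Of the 12 probes, 1 (Scgb3a1) was then called higher, as Scgb1b2 had a mean of 98.4. Scgb1b7 and the called Smr3a probe were also too dim. The folds of Tff2, Stoml3, Lcn11 and the called probes of Muc5b and Hpn were below 1.5. At an FDR below 0.05 with the reported processing, limma called 0 probes in each count, against 7626 at an unadjusted P below 0.05. With the replicate number as a block, limma also called 0 in each, with 6780 probes (8 of the 12) at an unadjusted P below 0.05; the arrays numbered 1 share a slide, those numbered 2 do not, and the correlation of same-numbered arrays' deviations was -0.0759. Leaving out 1 array gave 0 calls in each count, with 4223 to 6643 probes at an unadjusted P below 0.05; the lone array left in an age is then assumed to vary like the other age. The median log2 difference of the 12 probes, -0.64 as reported, was -0.92 to -0.52 with 1 array left out, -1.37 without dim probes, -0.51 within and -0.93 outside the shared slide, and -0.40 with the probes of a gene averaged. Slide as a random block could not be fitted, as 0 probes gave an estimate of the correlation; slide as a fixed block leaves the difference within the shared slide. Signal over background limits Scgb1a1, Scgb1b2 and Scgb1b7. Scgb1a1 and Scgb3a2 changed sign between settings, and the cause was not tested.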
